A study of Mus musculus with 24 samples.

Results

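The genes described here are 8 genes of the oligodendrocyte lineage in the nucleus accumbens (NAc), the part of the ventral striatum tied to reward: Pdgfra, Cspg4, Olig1, Olig2, Sox10, Gpr17, Bcas1 and Enpp6. They were chosen by name, for their known place in the lineage, from the 52636 gene identifiers in each count file. Earlier results of these data were known when they were chosen. RNA-seq was done on 24 C57BL/6 mice at 50 days of age, with 1 library per animal and 6 animals in each of 4 groups, namely CONF and CONM, females and males left without manipulation, and MSF and MSM, females and males that went through maternal separation with unpredictable maternal stress (MSUS). Pups in the MSUS groups were taken from the dam every day from postnatal day 1 to 14, for 2 h by the design text on record and for longer by the study's methods, and the dam was stressed without warning in that time. The tissue was a bilateral punch, so all cell types of the region, and whatever the punch took from its edge, are in each library. Ribosomal RNA was removed without selection of poly(A) tails, so unspliced RNA was counted wherever it fell in exons. Litters of the animals are not stated in the labels, so the p-values measure the spread between animals, some of which may be siblings.

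Oligodendrocyte precursor cells (OPCs) are the dividing glia that give rise to myelinating oligodendrocytes throughout life, and in the striatum they lie among the neurons of the gray matter and the white matter bundles that cross it. Pdgfra encodes the receptor through which platelet-derived growth factor A keeps OPCs dividing, and Cspg4 encodes NG2, a large surface proteoglycan that OPCs share with mural cells of blood vessels. Olig1, Olig2 and Sox10 encode transcription factors that are present from the OPC to the myelinating cell. Gpr17, a G protein-coupled receptor, marks committed precursors, Bcas1 marks early myelinating cells and stays on in mature ones, and Enpp6, a choline phosphodiesterase, marks newly formed oligodendrocytes.

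RefSeq's promoter table, on GRCm38.p6, matched 4 of the 8 genes. The 250 bases before RefSeq's start are shown for 3 of them. These are the surface pair whose levels varied together from animal to animal (Pdgfra and Cspg4) and 1 of the transcription factors (Olig2). Capitals mark CANNTG, the E-box core read by basic helix-loop-helix factors such as the OLIG proteins, and ACAAT or its complement ATTGT, the core read by SOX proteins. All 3 are on the plus strand, at chr5:75152001-75152250, chr9:56864854-56865103 and chr16:91225300-91225549 in the order given. The Cspg4 and Olig2 windows run past the gene starts in GENCODE M21 (56865033 and 91225457), so part of each lies inside the gene as GENCODE draws it.
Pdgfra: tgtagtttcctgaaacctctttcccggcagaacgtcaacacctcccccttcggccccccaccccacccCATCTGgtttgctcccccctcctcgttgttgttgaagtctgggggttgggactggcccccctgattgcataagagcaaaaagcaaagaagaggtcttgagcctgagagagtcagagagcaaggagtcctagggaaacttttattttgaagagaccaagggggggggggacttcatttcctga
Cspg4: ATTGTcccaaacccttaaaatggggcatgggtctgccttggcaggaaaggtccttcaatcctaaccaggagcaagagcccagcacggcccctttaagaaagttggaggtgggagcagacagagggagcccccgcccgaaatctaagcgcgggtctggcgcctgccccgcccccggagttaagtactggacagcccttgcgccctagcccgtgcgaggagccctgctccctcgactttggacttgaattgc
Olig2: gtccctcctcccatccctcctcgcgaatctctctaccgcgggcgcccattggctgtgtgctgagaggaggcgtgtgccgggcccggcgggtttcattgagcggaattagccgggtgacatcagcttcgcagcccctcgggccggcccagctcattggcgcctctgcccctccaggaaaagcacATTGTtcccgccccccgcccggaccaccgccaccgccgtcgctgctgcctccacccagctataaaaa
The Pdgfra window held 1 E-box core and no SOX core, and the other 2 each held 1 SOX core and no E-box core. Of all 32851 promoters in the table, 66.2% held at least 1 E-box core and 27.7% at least 1 SOX core over the same 250 bases and both strands; no matches of the 2 motifs overlapped in these windows. The windows differed in base composition, with 54.4% G and C in Pdgfra, 60.4% in Cspg4 and 66.8% in Olig2. A match is a match of letters and no evidence of binding.

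In GENCODE M21 on GRCm38, the assembly of mm10, Pdgfra (ENSMUSG00000029231.15) lies on chromosome 5 from 75152292 to 75198215, and Cspg4 (ENSMUSG00000032911.6) on chromosome 9 from 56865033 to 56899870. Olig2 (ENSMUSG00000039830.8; 91225457 to 91228677) and Olig1 (ENSMUSG00000046160.6; 91269772 to 91271933) are neighbours on chromosome 16, on the same strand with 41.1 kb between them. Sox10 (ENSMUSG00000033006.9) is on chromosome 15 from 79154908 to 79165240. Gpr17 (ENSMUSG00000052229.5) is on chromosome 18 from 31942997 to 31949636, Bcas1 (ENSMUSG00000013523.13) on chromosome 2 from 170346991 to 170427845, and Enpp6 (ENSMUSG00000038173.15) on chromosome 8 from 46986887 to 47096762. Exons of Gpr17 overlap those of Lims2 on the other strand, which had a mean of 455 counts per library, and exons of Bcas1 overlap those of the antisense genes Bcas1os1 and Bcas1os2 (means of 20.4 and 20.7 counts). The counts used were those of the sense strand.

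Sense-strand counts summed to between 39923666 and 70575745 per library. Xist and the Y-linked Ddx3y put every library in the sex its label gives. Marker genes of striatal projection neurons were present in every library, and none of the 107 listed marker and lineage genes was at 0 in any animal. The unassigned share, the percent of uniquely mapped read pairs that fell in no annotated exon on the counted strand, was between 31.0% and 34.8% in CONF and between 36.3% and 43.9% in MSF, so these groups did not overlap, whereas it was between 34.7% and 40.6% in CONM and between 32.2% and 44.7% in MSM. The mean log2 CPM of 8 markers of cortical excitatory neurons also ran lower in MSF (1.40 to 5.23, median 2.95) than in CONF (3.58 to 6.15, median 4.83). Both quantities are given again beside the results they move with.

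All 8 genes were counted well above the filter in every animal. Normalized counts (counts divided by DESeq2 size factors) were lowest for Enpp6, with 606 to 925 over the 24 animals, and highest for Bcas1, with 5469 to 9036. Per kilobase of exon, which allows levels to be compared between genes, Bcas1 (1864 ± 260 normalized counts per kb, SD, n = 24) and Olig1 (1859 ± 180) came first. They could not be ordered, since Bcas1 was above Olig1 in 12 of 24 animals. Gpr17 followed at 772 ± 62.5, then Sox10 at 662 ± 59.9, Olig2 at 553 ± 61.5, Pdgfra at 328 ± 18.9, Cspg4 at 156 ± 10.4 and Enpp6 at 114 ± 13.1. Gpr17 lay above Sox10 in 23 of 24 animals, and each later gene lay below the one before it in all 24. The order of the last 2 depended on the length used. Per kilobase of coding sequence, Cspg4 was last (266 ± 17.7) and Enpp6 had rank 7 (523 ± 60), Bcas1 had rank 3 (3705 ± 518) behind Olig1 (5152 ± 499) and Gpr17 (3942 ± 319), and Sox10 and Olig2 were level (1444 and 1443).

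**Figure D1:**
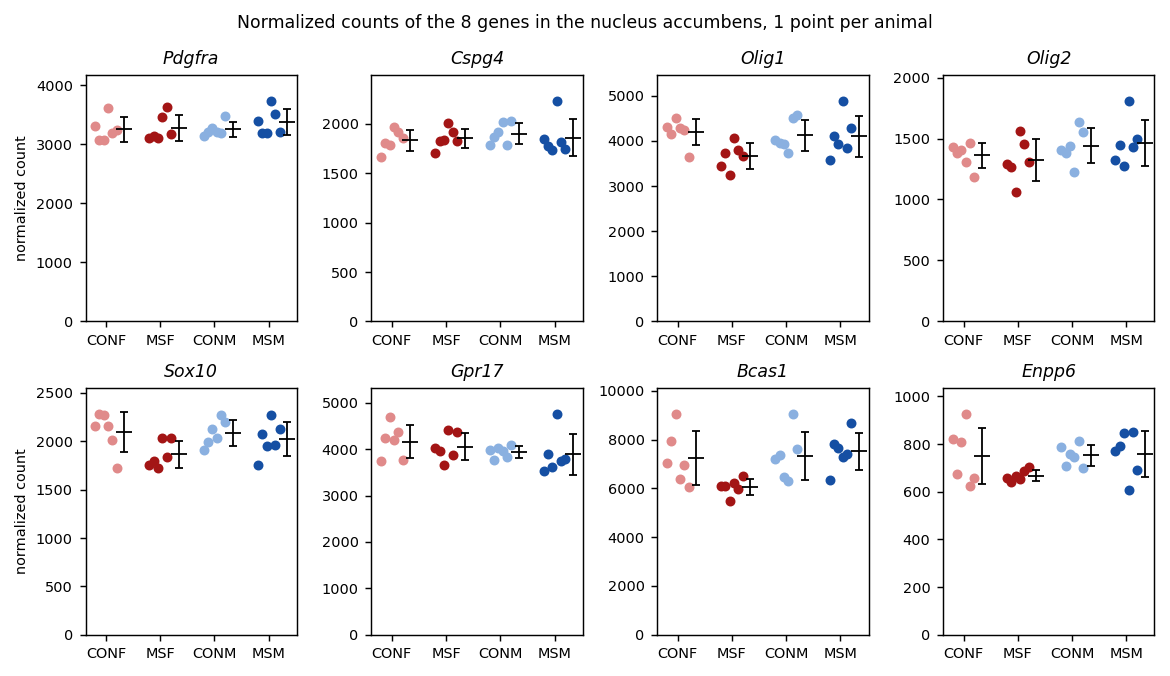
Normalized counts (vertical axes, from 0) of the 8 genes in each of the 24 animals, 1 point per animal, by group; black bars are the mean ± SD of 6 animals. The MSF points of Olig1 and Bcas1 sit low, with Bcas1 between 5469 and 6506 in MSF against 6038 to 9036 in CONF, while those of Pdgfra and Cspg4 lie inside the range of the other groups.

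Whether MSUS changed these genes in females was read from the 12 females. Of the 8 genes, 2 were lower in MSF than in CONF at an adjusted p under 0.10 (edgeR's quasi-likelihood test, Benjamini-Hochberg over 20571 genes) and none was higher. The genes that fell were Olig1, a transcription factor of the whole lineage, and Bcas1, which marks early myelinating cells and stays on in mature ones. Neither surface gene of the OPC passed. Of all genes tested, 25.1% passed in either direction and 11.9% as lower in MSF, so that 2 of 8 is close to the first share and above the second, and nothing particular to the 8 genes is read from it. The median log2 fold change of the 8 genes was −0.10, beside −0.0027 over all genes tested. No gene of the 8 separated the groups fully, a pattern (every MSF animal below every CONF animal) that 3.41% of all genes showed.

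Pdgfra, the growth factor receptor of OPCs, had between 3063 and 3620 normalized counts in CONF (median 3213) and between 3105 and 3632 in MSF (median 3156). The groups covered the same range. Its log2 fold change was 0.01 (standard error 0.051), with a 95% interval of −0.10 to 0.12. Cspg4, the NG2 proteoglycan, ran from 1660 to 1965 in CONF (median 1829) and from 1704 to 2003 in MSF (median 1832), a log2 fold change of 0.02 (standard error 0.046) with an interval of −0.08 to 0.12. The value for Cspg4 depended on the setting. With GC and length offsets it passed as higher in MSF (0.14, edgeR adjusted p = 0.0594). With the cortical marker score as a covariate it was −0.06 and did not pass.

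Olig1 ran from 3653 to 4509 normalized counts in CONF (median 4261) and from 3236 to 4070 in MSF (median 3701). All 6 MSF animals lay below the CONF median, and the ranges overlapped because of CONF replicate 6, the lowest control. Its log2 fold change was −0.19 (standard error 0.058, n = 6 per group, edgeR adjusted p = 0.0402), a fold of 0.876. The call was lost with GC and length offsets (−0.09, edgeR adjusted p = 0.292). It was also lost with the cortical marker score as a covariate (−0.19, edgeR adjusted p = 0.156). With the unassigned share as a covariate, Olig1 was at 0.06 and did not pass. Olig2, its neighbour and paralog, ran from 1183 to 1467 in CONF (median 1394) and from 1060 to 1558 in MSF (median 1298), and MSF held both the lowest and the highest female. Its log2 fold change was −0.04 with an interval of −0.21 to 0.13. Sox10, which with the OLIG factors keeps the lineage program on, ran from 1726 to 2280 in CONF (median 2154) and from 1725 to 2039 in MSF (median 1817). All 6 MSF animals were below the CONF median, but its log2 fold change of −0.17 (standard error 0.068) missed the threshold in edgeR's test (adjusted p = 0.107).

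Gpr17, the receptor of committed precursors, ran from 3741 to 4689 in CONF (median 4215) and from 3660 to 4413 in MSF (median 3989), a log2 fold change of −0.04 with an interval of −0.17 to 0.09. Bcas1 ran from 6038 to 9036 in CONF (median 7006) and from 5469 to 6506 in MSF (median 6091). The MSF animals were packed near the low end of a wide control range, with an SD of 341 against 1097. Its log2 fold change was −0.25 (standard error 0.085, edgeR adjusted p = 0.0598), a fold of 0.838. The call was lost without CONF replicate 2 (−0.22) or without MSF replicate 2 (−0.26), 3 (−0.23) or 5 (−0.25), and also with GC and length offsets (−0.22, edgeR adjusted p = 0.126) and with the cortical marker score as a covariate (−0.11, edgeR adjusted p = 0.51). Enpp6 showed the same shape without passing, at 622 to 925 in CONF (median 740) and 640 to 704 in MSF (median 660), with a log2 fold change of −0.17 (standard error 0.087) and an adjusted p of 0.199 from edgeR's test. In all, 4 of the 8 genes (Olig1, Sox10, Bcas1 and Enpp6) had all 6 MSF animals below the CONF median, as had 18.4% of all genes tested. In bulk tissue, fewer cells of a type and less RNA per cell cannot be told apart.

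**Figure D2:**
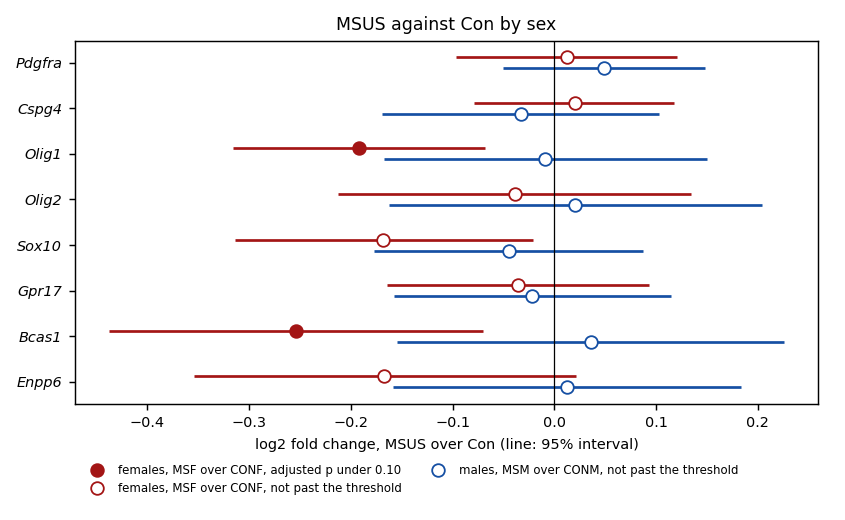
Log2 fold change of MSUS over Con (horizontal axis) with its 95% interval for each gene, in females (red) and males (blue); filled points passed an adjusted p of 0.10. Olig1 (−0.19) and Bcas1 (−0.25) in females are the filled points, and the male values all lie between −0.05 and 0.05.

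In males, none of the 8 genes passed by edgeR's quasi-likelihood test, none had an unadjusted p under 0.05, and DESeq2 called none. Over all 20691 genes tested 0% passed, by DESeq2 also none, and 191 had an unadjusted p under 0.05. Olig1 had between 3732 and 4578 normalized counts in CONM (median 3993) and between 3579 and 4883 in MSM (median 4016), and its log2 fold change was −0.01 with an interval of −0.17 to 0.15. Bcas1 ran from 6318 to 9031 in CONM (median 7282) and from 6325 to 8672 in MSM (median 7530), a log2 fold change of 0.04 with an interval of −0.16 to 0.23. The log2 fold changes of all 8 lay between −0.05 for Sox10 and 0.05 for Pdgfra.

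The difference between the sexes in the effect of MSUS, the group-by-sex interaction, passed for none of the 8 genes in edgeR's quasi-likelihood test on all 24 animals, as for 0% of the 21500 genes tested (4031 with an unadjusted p under 0.05, and 390 called by DESeq2, none of them among the 8). Of the 8, only Bcas1 had an unadjusted p under 0.05. Its interaction was −0.30 on the log2 scale, female minus male effect (standard error 0.128, edgeR adjusted p = 0.240), with an interval of −0.56 to −0.03. That of Olig1 was −0.19 with an interval of −0.39 to 0.01. Without MSM replicate 1, the male with the lowest Bcas1 (6325) and the highest unassigned share (44.7%) of its group, Bcas1 passed, along with 3031 of all genes. The fall in females is thus not shown to differ from the male values.

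Between Con females and Con males, none of the 8 genes passed by edgeR, none had an unadjusted p under 0.05, and DESeq2 called none. Of all genes tested, 2.64% passed by edgeR, and DESeq2 called 1485 of 20621. The log2 fold changes, female over male, ran from −0.08 for Olig2 to 0.09 for Gpr17. Between MSUS females and MSUS males, 0.135% of all genes passed and none of the 8 did. Bcas1 came closest, ranking 36 by p of 20714 genes. It had 6055 ± 341 normalized counts in MSF and 7522 ± 766 in MSM (SD, n = 6). The log2 fold change was −0.32 (standard error 0.064, edgeR adjusted p = 0.135), with all 6 females below the male median. Bcas1 passed by DESeq2 (159 of 20011 genes did) and with a term for library set, those numbered up to 12 and those above (71 of 20714). It also passed without the filter on low counts (32 of 36701) and without MSM replicate 1 (64 of 20862). Enpp6 (−0.19) and Olig1 (−0.17) had unadjusted p under 0.05 in edgeR's test there as well, as had 1511 of the 20714 genes tested. This comparison and that of MSF with CONF share the MSF animals, so their values for Bcas1 are not independent.

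The pair of neighbouring genes was also set against each other within each animal, a ratio on which scaling between libraries has no bearing. This ratio and that of Bcas1 to Pdgfra, given below, were chosen after the fold changes had been seen, so their p-values are no fresh test. Olig1 exceeded Olig2 by 1.62 ± 0.068 on the log2 scale in CONF and by 1.48 ± 0.094 in MSF (SD, n = 6), a difference of −0.15 (p = 0.0173 in a two-sided exact permutation test, 0.0693 after adjustment over 4 ratio tests). In males the difference was −0.03 (exact permutation p = 0.476). The ratio of Bcas1 to Pdgfra, a marker of myelinating cells against one of precursors, was 1.14 ± 0.280 in CONF and 0.89 ± 0.118 in MSF, a difference of −0.25 (exact permutation p = 0.0671, adjusted 0.134), and in males it differed by −0.01 (exact permutation p = 0.948). With 6 animals against 6 the smallest p possible is 0.00216. The groups overlapped for both ratios. Bcas1 had the lowest female log2 fold change of the 8 genes (−0.25) and Pdgfra changed by 0.01. The difference in their ratio thus repeats the fall of Bcas1. Within groups, Bcas1 rose and Pdgfra fell with the cortical marker score (Pearson's r 0.62 and −0.75), which ran lower in MSF than in CONF. With that score as a covariate in females, the log2 fold changes were −0.11 for Bcas1 and −0.08 for Pdgfra, neither passing. The part of the score in the ratio was not tested.

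The other genes of the lineage, taken from lists by stage, were sorted in the same way in females. Of 14 other OPC genes, 1 rose and 1 fell, with a median log2 fold change of 0.01. The one that rose was Pcdh15, a protocadherin (0.36, adjusted p = 0.0295 from edgeR's test, with 1812 ± 268 normalized counts in CONF and 2320 ± 268 in MSF), and the one that fell was Lrrn1, a leucine-rich repeat protein (−0.28). Xylt1, an enzyme of proteoglycan synthesis, had the lowest value, −0.44, and did not pass. Of 13 other transcription factors of the lineage, 2 fell and none rose (median −0.02). They were Myrf, which switches on myelin genes (−0.22, adjusted p = 0.0503 from edgeR's test), and Id2, an inhibitor of basic helix-loop-helix factors (−0.46, from 2596 ± 780 to 1880 ± 305). Id4, of the same family as Id2, had the highest value of that list, 0.30, and Sox5 the lowest, −0.62, and neither passed.

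Of 11 other genes of newly formed oligodendrocytes, 4 fell and none rose, with a median of −0.17. They were Nfasc, an adhesion protein of the node of Ranvier and its flanks (−0.21, from 27449 ± 2599 to 23752 ± 948), Cnksr3, a scaffold protein (−0.38), Myrf, and Tmem163, a zinc transporter (−0.55, from 751 ± 244 to 511 ± 117). Tcf7l2, a transcription factor of the step to myelination, had the highest value of the list, 0.17, and did not pass. Of 12 mature oligodendrocyte markers, 7 fell and none rose, with a median of −0.23 and all 12 values negative. Mag, an adhesion protein of myelin, changed by −0.28 (adjusted p = 0.0128), Mbp, myelin basic protein, by −0.31 (0.0231), Cnp by −0.23 (0.0353) and Mog by −0.25 (0.0491), all from edgeR's test. Aspa had the value nearest to 0, −0.04. Against the 25.1% of all genes that passed, 2 of 14, 2 of 13, 4 of 11 and 7 of 12 members of these lists did. Which cells of the punch the changes in these lists came from was not tested. Markers of cortical excitatory neurons had a median of −1.82 in the same comparison, with 7 of 8 values negative.

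**Figure D3:**
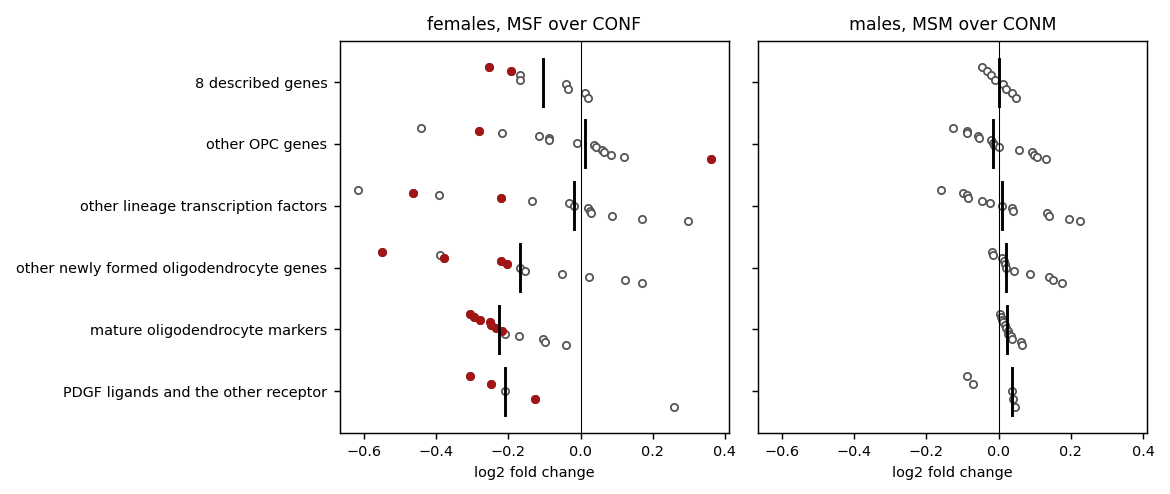
Log2 fold changes of MSUS over Con (horizontal axes) for the 8 described genes and for 5 lists, in females (left) and males (right); each point is 1 gene, red where it passed an adjusted p of 0.10, and the vertical bars are medians. In females the median runs from 0.01 for other OPC genes to −0.23 for mature markers, and in males the medians run from −0.01 to 0.04.

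Of the ligands of PDGFRα and its sister receptor, 3 of 5 fell in females and none rose, with a median of −0.21, where 11.9% of all genes tested passed as lower. Pdgfb, ligand of both receptors, fell by 0.31 on the log2 scale, from 973 ± 103 normalized counts in CONF to 785 ± 68.7 in MSF (adjusted p = 0.0171 from edgeR's test). Pdgfa, the main ligand of PDGFRα, fell by 0.25, from 1277 ± 193 to 1072 ± 95 (adjusted p = 0.0794), and Pdgfrb, the receptor on mural cells, fell by 0.13 (adjusted p = 0.0669). Pdgfd had the highest value, 0.26, at 81.6 normalized counts in CONF, and did not pass. In males none of these 5 genes, nor of the other 4 lists, passed by edgeR or DESeq2 or had an unadjusted p under 0.05. Between the sexes in MSUS animals, 1 of the 12 mature markers passed by edgeR and 9 by DESeq2, beside 0.135% and 0.795% of all genes tested by each, and all 12 values were lower in females (median −0.24).

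Markers of other cell types were counted in the same way. In MSF, 3 of 9 astrocyte markers, 3 of 7 mural cell markers and 1 of 8 markers of cortical excitatory neurons fell by edgeR. Of all genes, 25.1% passed in either direction and 11.9% as lower. DESeq2 called 5, 3 and 2 markers of these lists, beside 26.3% of all genes it tested. None of the microglial, endothelial, fibroblast or striatal projection neuron markers passed by edgeR or DESeq2. Of these, 1, 4, 0 and 0 had an unadjusted p under 0.05 in edgeR's test, as had 6735 of all 20571 genes. The median farthest from 0 was that of the cortical excitatory list, −1.82, with 7 of its 8 values negative. Its summed level was between 13762 and 87184 normalized counts in CONF (median 32100) and between 6820 and 39402 in MSF (median 11389), and no marker was at 0 in any animal. Mature oligodendrocyte markers summed to between 236658 and 357528 in CONF (median 299598) and between 217047 and 265719 in MSF (median 253552).

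From animal to animal within groups, the 8 genes did not all vary together. Pearson's r of log2 CPM after subtraction of the group means was positive in 22 of the 28 pairs, with a median of 0.36, and 12 pairs had an adjusted p under 0.10 (permutation within groups, adjusted over 28 pairs). Olig1 and Olig2 went together most closely (r = 0.89, permutation p = 3e-05, adjusted 0.00042; Spearman's rho = 0.83, permutation p = 3e-05, adjusted 0.00084), and r was 0.86 without the 2 animals farthest from the median. Olig1 and Sox10 followed (r = 0.82, permutation p = 1e-05, the smallest the permutations can give, adjusted 0.00028; rho = 0.77, permutation p = 9e-05, adjusted 0.00126), with r = 0.76 without the 2 farthest. Pdgfra and Cspg4 also went together (r = 0.71, permutation p = 0.0004, adjusted 0.0028; rho = 0.66, permutation p = 0.00079, adjusted 0.00553; r = 0.56 without the 2 farthest). Bcas1 went with Sox10 (r = 0.64, permutation p = 0.00219, adjusted 0.00876; rho = 0.58, permutation p = 0.00626, adjusted 0.0307; r = 0.47 without the 2 farthest). The relation of Cspg4 with Gpr17 (r = 0.60, permutation p = 0.0198, adjusted 0.0505; rho = 0.42, permutation p = 0.0532, adjusted 0.115) rested on single animals, since r was 0.25 without the 2 farthest. Pdgfra and Olig2 had r = 0.46 (permutation p = 0.0415, adjusted 0.0969; rho = 0.26, permutation p = 0.238, adjusted 0.417; r = 0.42 without the 2 farthest). Bcas1 ran against both surface genes, past 0.10 by rank only. With Pdgfra it had r = −0.34 (permutation p = 0.12, adjusted 0.202; rho = −0.48, permutation p = 0.028, adjusted 0.0784). With Cspg4 it had r = −0.35 (permutation p = 0.106, adjusted 0.202; rho = −0.46, permutation p = 0.0371, adjusted 0.0866). Enpp6 had no pair with an adjusted p under 0.10, and its r ran from −0.39 with Cspg4 to 0.08 with Pdgfra.

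The genes most like each member over the 24 animals, of 14292 other genes with a mean of at least 100 counts, were found by Pearson's r of log2 CPM, given as a description. For Bcas1 they were Enpp2 (0.96), Prr18 (0.96) and the myelin gene Mobp (0.96), the closest likeness of any member. For Olig1 they were Aatk (0.91), Gna12 (0.91) and Scd2 (0.89), for Sox10 Gna12 (0.89), Cd82 (0.89) and Ndrg1 (0.88), and for Olig2 Olig1 itself (0.82), Cd81 (0.80) and Dnajb2 (0.79). Those of Pdgfra were Gprasp1 (0.84), Dzank1 (0.83) and Sparc (0.83), and those of Cspg4 were Hdac11 (0.84), Vat1 (0.83) and Cryzl2 (0.83). Gpr17 (Hyou1 0.79, Dnajc28 0.78, Cant1 0.77) and Enpp6 (Gm49602 0.69, Plekhg1 0.69, Nr2c2 0.68) had looser company. Mobp, for Bcas1, was the only listed mature marker among the closest genes of any member.

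The unassigned share, the cortical marker score and the level of the mature markers went with some of the 8 genes inside groups too. These 24 relations, of 8 genes with 3 quantities, were added after the data were seen, and their p-values are adjusted over the 24. The unassigned share was inversely related to Olig1 (r = −0.71, permutation p = 0.00108, adjusted 0.00436; rho = −0.76, permutation p = 0.00015, adjusted 0.0012; r = −0.70 without the 2 farthest) and to Bcas1 (r = −0.57, permutation p = 0.00189, adjusted 0.00567; rho = −0.52, permutation p = 0.0131, adjusted 0.0349; r = −0.42 without the 2 farthest). Olig2 and Sox10 had r of −0.66 and −0.66 (permutation p adjusted 0.00696 and 0.00414), whereas Pdgfra (−0.14) and Cspg4 (−0.07) had adjusted p-values of 0.756 and 0.838. The cortical excitatory marker score went with Bcas1 (r = 0.62, permutation p = 0.00167, adjusted 0.00567; rho = 0.65, permutation p = 0.00138, adjusted 0.00552; r = 0.63 without the 2 farthest) and inversely with Pdgfra (r = −0.75, permutation p = 0.00012, adjusted 0.00096; rho = −0.72, permutation p = 0.00038, adjusted 0.00182; r = −0.72 without the 2 farthest) and Cspg4 (r = −0.79, permutation p = 3e-05, adjusted 0.00036; rho = −0.78, permutation p = 5e-05, adjusted 0.0012; r = −0.75 without the 2 farthest), while Olig1 had r = −0.05. The mean log2 CPM of the 12 mature markers went with 4 of the 8 genes at an adjusted p under 0.10, Olig1 (r = 0.62, permutation p adjusted 0.00436), Sox10 (r = 0.61, permutation p adjusted 0.00941), Olig2 (r = 0.53, permutation p adjusted 0.0101) and, most closely, Bcas1 (r = 0.84, permutation p = 1e-05, adjusted 0.00024; rho = 0.76, permutation p = 0.00012, adjusted 0.0012; r = 0.79 without the 2 farthest).

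**Figure D4:**
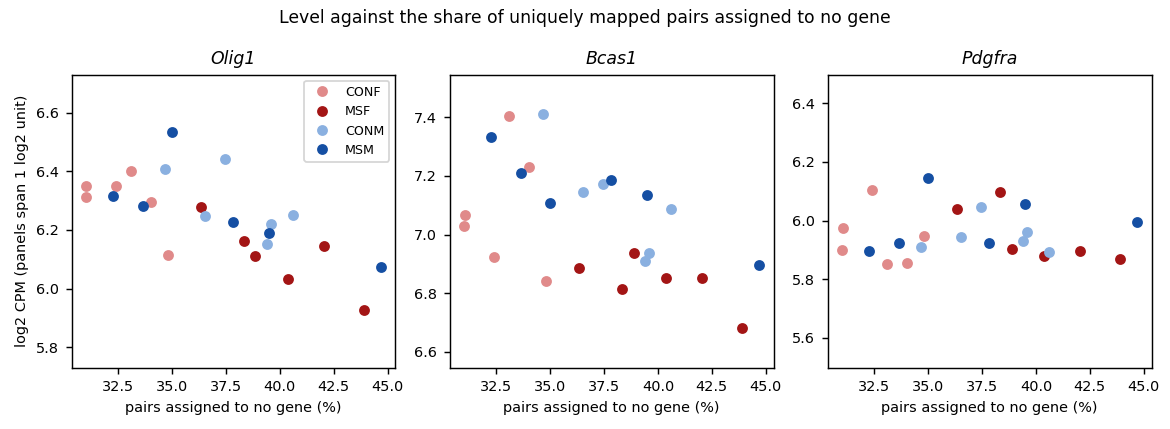
Log2 CPM of Olig1, Bcas1 and Pdgfra (vertical axes, each spanning 1 log2 unit) against the unassigned share in percent, 1 point per animal. CONF lies at 31.0% to 34.8% and MSF at 36.3% to 43.9%, and within groups r is −0.71 for Olig1, −0.57 for Bcas1 and −0.14 for Pdgfra.

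Both calls in females were lost in fits that carried the unassigned share or the cortical marker score. With the unassigned share as a covariate, the log2 fold change of Olig1 was 0.06 (interval −0.14 to 0.26) and that of Bcas1 −0.16 (interval −0.55 to 0.24), and none of the 20571 genes passed. The largest move was that of Olig2, from −0.04 to 0.41 (interval 0.21 to 0.61, unadjusted p = 0.000819, adjusted p = 0.76 by edgeR), and with the spliced share as a covariate it was 0.45 (interval 0.20 to 0.71, adjusted p = 0.905). Because CONF and MSF do not overlap in this share, the covariate and the group can hardly be told apart in that fit. With the cortical marker score as a covariate, which left 1932 genes passing, Olig1 kept its size (−0.19, interval −0.34 to −0.03, adjusted p = 0.156 from edgeR's test) and Bcas1 was −0.11 (interval −0.31 to 0.08). With GC and length offsets, Olig1 was −0.09 and Bcas1 −0.22, neither passing, and Cspg4 passed as higher in MSF at 0.14 (interval 0.05 to 0.23, adjusted p = 0.0594 from edgeR's test). In that fit 3336 of 20571 genes passed, 1641 of them as higher. DESeq2, which called 26.3% of the genes it tested, called Sox10 as well (−0.17, adjusted p = 0.0963). So did counts without regard to strand (6823 of 23506 genes passed) and a fit of all 24 animals (4087 of 21500).

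**Figure D5:**
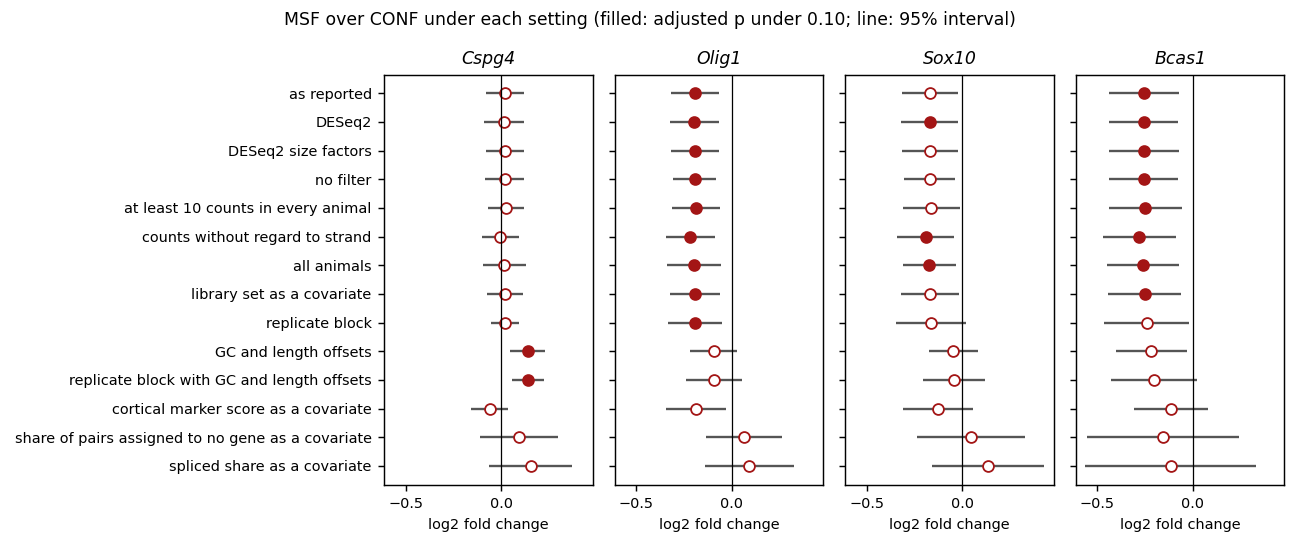
Log2 fold change of MSF over CONF (horizontal axes) with its 95% interval for Cspg4, Olig1, Sox10 and Bcas1 under each setting; filled points passed an adjusted p of 0.10. Olig1 moves from −0.19 as reported to 0.06 and 0.09 with the unassigned share (labelled as pairs assigned to no gene) and the spliced share (splice events per mapped pair) as covariates, and Cspg4 is filled only with the 2 fits that carry GC and length offsets.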

How the data were processed

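NAc RNA-seq libraries of 24 mice, 1 per animal, were trimmed and aligned by the authors to mm10 with STAR 2.6.1b and GENCODE M15, who deposited unnormalized gene counts, unstranded and per strand. The sense column was used, and 52489 of 52636 identifiers were matched to GENCODE M21. Replicates are animals. Genes were filtered with filterByExpr (minimum count 10), TMM-normalized and tested with edgeR 4.0.16 (robust quasi-likelihood F test) in R 4.3.3, with Benjamini-Hochberg adjustment over all genes and a threshold of 0.10. Standard errors are |log2 fold change|/√F. DESeq2 1.42.0 gave size factors and an alternative test. Correlations used 100000 permutations within groups (scipy 1.17.1). The estrous stage of the authors' female model was left out, since the labels give a stage to some males and not to all females. Pairs with several alignments, or touching exons of more than 1 gene, are not counted by STAR. The fits were tested on simulated data. The 8 genes and the lists were chosen with earlier results of these data known. After the data were seen, 1 listed gene was dropped from the lists; it is not reported here. Named list genes are up to 4 called genes with the smallest p in females and the genes with the highest and lowest fold change. Spliced share came from the study's quality table, of which no value is given. Over the 60 pairs of libraries within groups, the lowest chi-square per gene was 5.88, so none were copies.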

Additional observations from a re-analysis of the deposited data

Results flagged for a closer look

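MSM replicate 4 stood apart from the other 5 MSUS males in 2 genes, by the gap to its nearest neighbour against the range of the group. Cspg4 was at 2230.8 normalized counts there and Gpr17 at 4749.6, each the highest of its group. In 32 sets of 6 animals (8 genes in 4 groups), chance flags about 1 set in 20. The same animal had the highest value of its group in 6 of the 8 genes (Pdgfra, Cspg4, Olig1, Olig2, Sox10 and Gpr17), ranked 5 of 6 for Bcas1 and was lowest for Enpp6 (606). Its cortical marker score, 2.45, was the lowest of the MSM animals. Without it, the male log2 fold change was −0.09 for Cspg4 and −0.09 for Gpr17, beside −0.03 and −0.02 with it, and still none of the 8 genes passed in males.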

How the results depend on the processing

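The number of the 8 genes called was recomputed under 26 alternatives in females, of which 11 did not stay within 1.5 times of the value reported. In the other comparisons, where the reported count was 0, it left 0 in 4 of 26 alternatives between MSUS females and males, in 1 of 37 for the interaction and in none of 26 in males or in Con animals. In females it was 2 as reported, and 1 at an adjusted p under 0.05 (Olig1), 1 with the replicate block (Olig1, with Bcas1 at −0.24 and an adjusted p of 0.143), 1 with GC and length offsets (Cspg4), 1 with the replicate block with GC and length offsets (Cspg4), and 0 with the cortical marker score, the unassigned share or the spliced share as a covariate. Of all 20571 genes, 3800 passed with the replicate block, 3336 with the offsets, 1696 with both and 1932 with the cortical marker score. Leaving out 1 animal in turn gave 1 to 3 of the 8 genes, where 3102 to 5737 of all genes passed. Olig1 passed each time, and Bcas1 was lost without CONF replicate 2 or MSF replicate 2, 3 or 5. Sox10 also passed without CONF replicate 6 or MSF replicate 6, and Enpp6 without CONF replicate 5. The log2 fold change of Olig1 reversed to 0.063 with the unassigned share and to 0.092 with the spliced share. In MSUS animals females against males gave 1 of 8 (Bcas1) by DESeq2, with library set as a covariate and without the filter (159, 71 and 32 of all genes passing). It was 0 as reported, and 0 to 1 with 1 animal left out. The interaction gave 0 to 1, with 1 (Bcas1) only without MSM replicate 1 (3031 of all genes passing). The male log2 ratio of Bcas1 to Pdgfra, −0.01 as reported, lay between −0.065 and 0.059 when single animals were dropped, and reversed without CONM replicate 5 or MSM replicate 1, 4 or 5. The causes were not tested. The fold changes of single genes gave 1088 values in all, of which 992 moved by less than their standard error or kept their call and sign.

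The labels do not say that replicate numbers pair animals, and same-numbered animals did not deviate together throughout, with correlations across genes from −0.24 to 0.25 in females and from −0.37 to 0.26 in males. Depth did not limit these genes, each with at least 606 normalized counts, but 6 animals per group limit the precision to standard errors of 0.046 to 0.087 in females.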
